A study of Mus musculus with 24 samples.

Results

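The genes described here code for the p38 kinases, for the kinases that switch them on and for the kinases that they switch on in turn. The list held 10 mouse genes, and every array probe annotated with one of those symbols was taken. Of the 10 genes, 9 had a probe, with 14 probes in all, among 16593 named genes and 25697 probes on the array. Rps6ka4, which codes for MSK2, had no probe in the annotation and was not analysed here.

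p38 is a mitogen-activated protein kinase that works at the end of a relay. A MAP3K such as TAK1 phosphorylates a MAP2K, the MAP2K phosphorylates p38 on a threonine and a tyrosine, and p38 then phosphorylates transcription factors and further kinases. In macrophages, bacterial lipopolysaccharide (LPS) starts this relay through TLR4, and MK2, a kinase downstream of p38, stabilizes mRNAs of inflammatory cytokines. The activity of these enzymes is set by phosphorylation, which mRNA arrays do not measure, so the values below are amounts of mRNA.

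RNA came from cultured macrophages and was measured on 24 Illumina MouseRef-8 v2 BeadChip arrays, in 2 experiments of 12 arrays, with 3 arrays in each of 8 groups. In the IKKβ experiment, wt cells carried floxed Ikkβ alleles (F/F) and IKKβ-deficient cells carried the same alleles with Mx1-Cre, in C57BL/6 mice. Mx1-Cre is driven by an interferon-inducible promoter that is not restricted to macrophages. In the p38 experiment, cells of C57BL/6 mice received SB202190, a pyridinyl imidazole that blocks the ATP site of p38α and p38β, at 10 µM for 2 h, and the control cells received DMSO. The name DMSO comes from the text of the study, since the labels title the control arrays as wild type. In both experiments the cells were taken before (0 h) and 4 h after LPS at 100 ng/ml. The labels describe bone marrow-derived macrophages (BMDMs) from mice 8 to 10 weeks old, grown for 7 days with 20% L929-conditioned medium, although their cell line field names RAW264.7. Nothing in the labels says that arrays of a group came from separate mice or cultures, so the p-values measure the spread between arrays, which may be technical. In cultured cells of this kind, a lower value can come from less mRNA per cell or from fewer cells that hold it, and these cannot be told apart.

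The arrays detected 10050 to 11511 probes in the IKKβ experiment and 11038 to 12508 in the p38 experiment. All 6 macrophage markers on the array were detected on every array, and none of the 4 T cell markers was detected on 3 or more arrays of either experiment. Some markers listed for other cell types were detected too. Of 3 B cell markers on the array, Cd79b was detected on 5 arrays of each experiment and the others on 2 or fewer. Of 5 neutrophil markers on the array, S100a8 was detected on all 12 arrays of each experiment and the others on 7 or fewer, and their summed level was 855 to 3210 units at 0 h and 2400 to 3950 at 4 h in wt, and 775 to 1330 and 2830 to 4380 in IKKβ-deficient cells. In the DMSO control it was 947 to 1560 at 0 h and 1390 to 2550 at 4 h, and with SB202190 1310 to 1530 and 1070 to 1170. Of 4 fibroblast markers, Dcn was detected on 11 arrays of the IKKβ and all 12 of the p38 experiment, Col1a1 and Col1a2 on 3 and 7, and Col3a1 on 0 and 2. Whether such cells were present, and their part in the LPS comparisons, was not tested. Ikbkb, the gene deleted in the IKKβ-deficient cells, had 601 to 791 units in wt cells at 4 h and 193 to 232 in IKKβ-deficient cells, a log2 difference of -1.66 ± 0.16 (SE, adjusted p = 0.0142, limma). At 0 h its values were 323 to 471 and 184 to 196, a log2 difference of -1.06 (adjusted p = 0.37, limma). Il1b, an LPS-induced cytokine gene, was not uniformly low at 0 h. It stood at 131, 10304 and 15929 units on replicates 1, 2 and 3 of wt, at 128, 1762 and 6617 in IKKβ-deficient cells, and at 123, 20561 and 3997 in the DMSO control, against 625 to 719 with SB202190. In the p38 experiment, 8 of the 12 normalized columns had the rank order of an intensity column, 2 of them of an intensity column with another condition in its label. The DMSO 4 h column of replicate 3 (Il1b at 51928 units) followed one labelled SB202190 0 h. The SB202190 0 h column of replicate 2 (Il1b at 719 units) followed one labelled DMSO 4 h. The other 4, all from SB202190-treated cells, followed no intensity column, with a rank correlation of at most 0.938. Values given below by the intensity labels therefore rest on other SB202190 intensities as well as on other labels. They are not the same arrays under new names. The SB202190 arrays also lay closer together than other replicates, with a median log2 SD over probes of 0.11 before LPS and 0.08 after it, where the other 6 groups had 0.23 to 0.30. Each result below that rests on the p38 experiment is therefore given with its value under other treatments of these arrays where the call depends on it. Where groups are said below not to overlap, the share of all probes without overlap was not counted, so this is a description. Between the SB202190 groups, fitted by themselves, 48.5% of all probes passed after LPS, so separation there is not particular to the members.

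The sequences around the start sites of 4 members show the DNA next to the transcripts that the results turn on, from 250 bases before to 50 bases after the start, read 5′ to 3′ along the gene's strand from RefSeq. Capitals mark matches, on either strand, to a Sp1 box (GGGCGG), a CRE half-site (TGACG), an AP-1 site (TGANTCA), a C/EBP core (TTNNGNAA), the palindromic CRE (TGACGTCA, which contains the half-site) and the NF-κB consensus.
Mapkapk2 (GRCm38.p6 chr1:131097794-131098093, minus strand): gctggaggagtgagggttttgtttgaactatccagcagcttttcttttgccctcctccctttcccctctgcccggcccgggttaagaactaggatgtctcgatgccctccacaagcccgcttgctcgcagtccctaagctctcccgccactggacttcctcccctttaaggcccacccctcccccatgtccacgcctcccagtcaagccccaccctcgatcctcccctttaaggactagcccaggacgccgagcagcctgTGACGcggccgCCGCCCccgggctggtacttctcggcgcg
Map2k3 (GRCm38.p6 chr11:60931804-60932103, plus strand): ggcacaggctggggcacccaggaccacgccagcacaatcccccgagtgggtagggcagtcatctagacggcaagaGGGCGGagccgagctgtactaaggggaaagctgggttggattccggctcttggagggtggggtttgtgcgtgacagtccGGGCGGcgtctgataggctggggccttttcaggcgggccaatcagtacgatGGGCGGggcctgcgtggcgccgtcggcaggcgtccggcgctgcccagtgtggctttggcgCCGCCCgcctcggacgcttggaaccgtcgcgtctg
Map2k4 (GRCm38.p6 chr11:65788310-65788609, minus strand): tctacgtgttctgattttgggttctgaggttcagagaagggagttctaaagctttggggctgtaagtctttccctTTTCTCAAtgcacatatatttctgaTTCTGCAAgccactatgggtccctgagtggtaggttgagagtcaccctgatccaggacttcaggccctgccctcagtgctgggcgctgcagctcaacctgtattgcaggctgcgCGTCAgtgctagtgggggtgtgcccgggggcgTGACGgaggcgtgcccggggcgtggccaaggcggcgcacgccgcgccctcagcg
Mapk14 (GRCm38.p6 chr17:28691092-28691391, plus strand): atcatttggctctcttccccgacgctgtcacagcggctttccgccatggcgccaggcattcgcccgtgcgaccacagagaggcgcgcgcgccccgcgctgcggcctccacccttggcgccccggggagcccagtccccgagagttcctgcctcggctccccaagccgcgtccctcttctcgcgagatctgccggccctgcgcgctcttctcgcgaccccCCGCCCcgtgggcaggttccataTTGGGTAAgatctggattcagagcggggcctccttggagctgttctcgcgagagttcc
All 9 genes with a probe had such a sequence. Mapk14, Map2k4 and Mapkapk3 each had 2 such windows and Map2k6 had 3, of which only the one nearest the gene's annotated start was searched. The NF-κB consensus was found in 1 of the 9, Rps6ka5, and in 8.46% of all 32851 promoter windows. The AP-1 site was found in 1, Map2k6, and in 7.81% of all windows. A C/EBP core was found in Mapk14, Map2k4 and Map2k6, and in 40.7% of all windows, and a Sp1 box in 6 of the 9 and in 35.7%. The CRE half-site was found in 5 of the 9, Mapkapk2 and Map2k4 included, and in 20.8% of all windows, while the palindromic CRE was found in none of the 9 and in 1.79% of all. Map2k3 held only Sp1 boxes of the motifs searched. A match is a stretch of letters, and no binding was measured at these sites.

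Not every member was measurable. Of the 14 probes, 6 were detected on all 12 arrays of the IKKβ experiment and 7 on all 12 intensity columns of the p38 experiment, while 5 and 4 were detected on none. Probes were tested where at least 3 of the 12 intensity columns had a detection p under 0.05, which left 8 member probes for 8 genes in the IKKβ experiment, among 12376 probes, and 9 member probes for 8 genes in the p38 experiment, among 13523. The second probes of Mapk11, Mapk13 and Rps6ka5 were detected on no array and ranged from 73 to 113 units. Levels are set against each other only within a probe, because different probes bind with different strength.

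**Figure D1:**
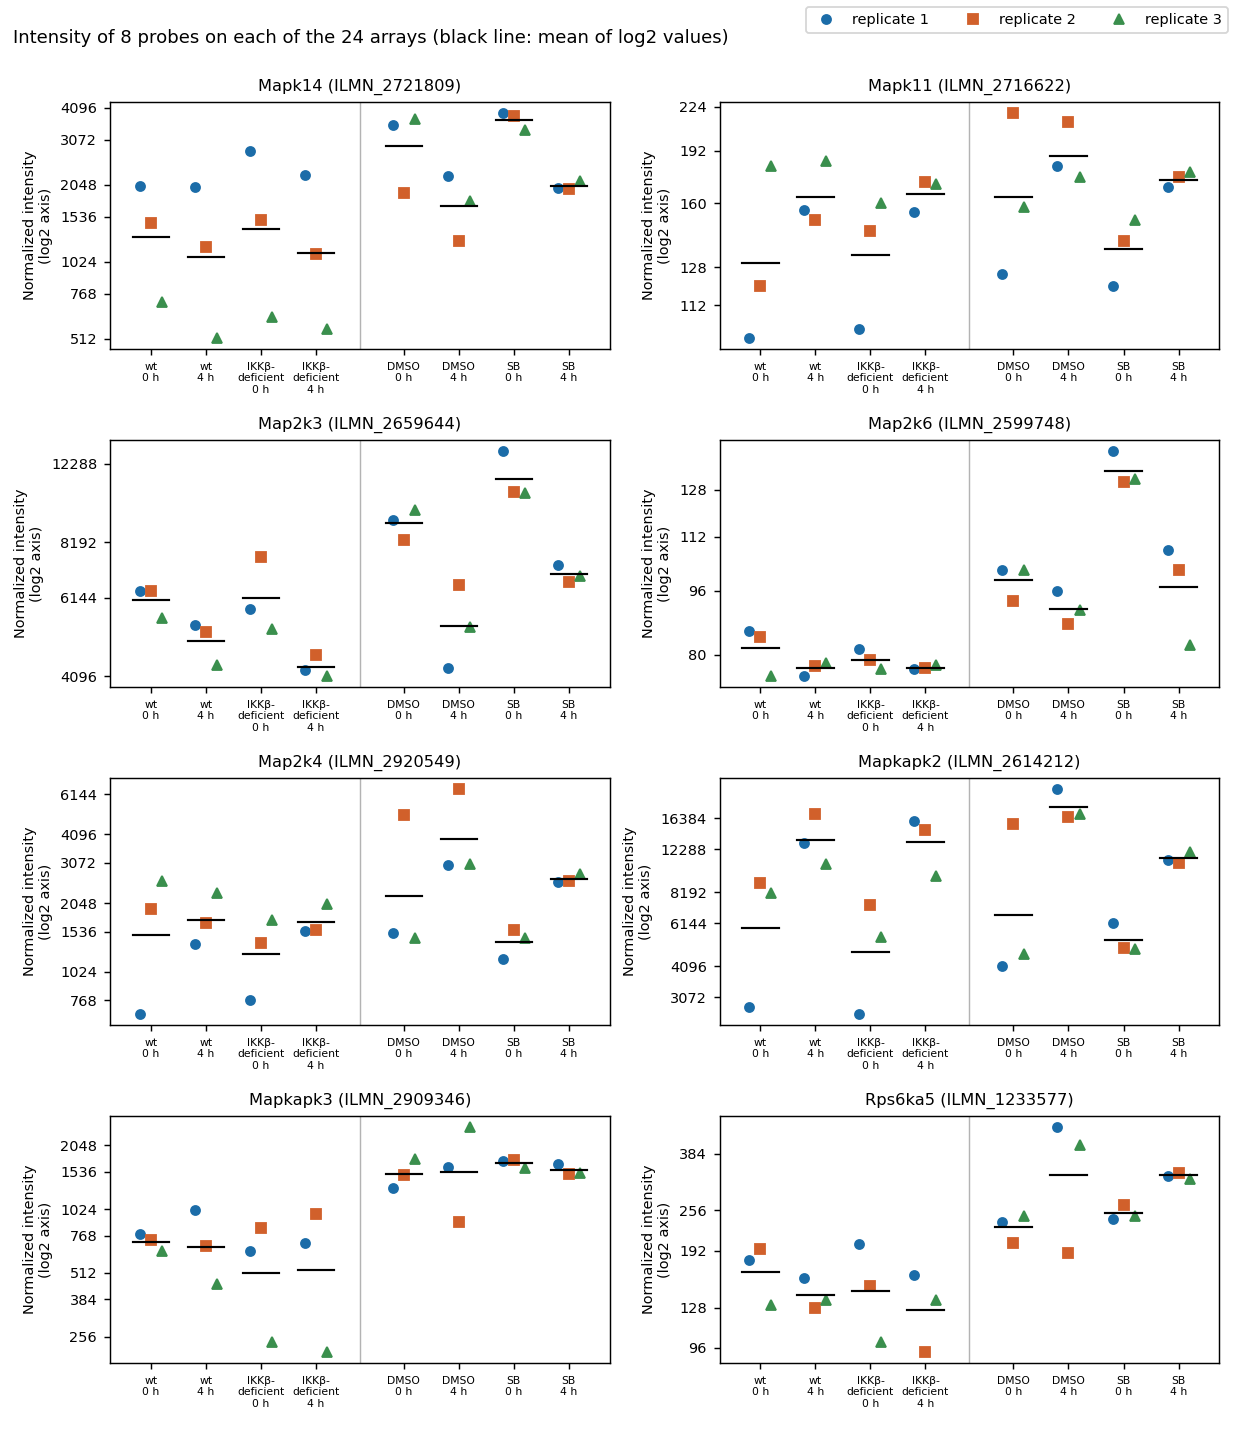
Normalized intensity (vertical axis, log2 scale, arbitrary units) of 8 probes on each of the 24 arrays, with the 8 groups along the horizontal axis, one symbol per replicate number and a black line at the mean of the log2 values (SB stands for SB202190). Mapk14 follows the replicate number in the IKKβ experiment, from 1999 to 2778 on replicate 1 down to 517 to 711 on replicate 3, and the SB202190 arrays lie close together.

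Mapk14 codes for p38α, the main p38 kinase of macrophages and a target of SB202190. In wt cells its intensity was 2029, 1457 and 711 at 0 h and 1999, 1166 and 517 at 4 h on replicates 1, 2 and 3. In IKKβ-deficient cells it was 2778, 1494 and 624 at 0 h and 2245, 1102 and 560 at 4 h. In all 4 groups replicate 1 was the highest and replicate 3 the lowest (the number is that of the BeadChip), and the groups overlapped. After LPS the log2 difference was -0.27 in wt (adjusted p = 0.966, limma) and -0.30 in IKKβ-deficient cells (adjusted p = 0.967), and it was below 0 on all 3 BeadChips in both, at -0.02, -0.32 and -0.46 and at -0.31, -0.44 and -0.16. With the BeadChip as a block the adjusted p was 0.242 and 0.207. The log2 difference between IKKβ-deficient and wt cells was 0.10 at 0 h (95% interval -1.48 to 1.68) and 0.07 at 4 h (-1.51 to 1.65), both with an adjusted p of 1 in limma. With the BeadChip as a block the intervals were -0.19 to 0.39 and -0.22 to 0.36.

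In the p38 experiment Mapk14 stood at 3492, 1894 and 3701 in the DMSO control at 0 h and at 2223, 1231 and 1766 at 4 h. With SB202190 it stood at 3903, 3806 and 3351 at 0 h and at 1994, 1972 and 2123 at 4 h. Each of the 3 SB202190 arrays at 4 h lay below each at 0 h, while in the DMSO control the groups overlapped through the low replicate 2 at 0 h. The log2 difference after LPS was -0.86 ± 0.262 (SE) with SB202190 (adjusted p = 0.0652, limma) and -0.78 ± 0.262 in the control (adjusted p = 0.103), so neither passed. Without the DMSO 0 h array of replicate 2 they were -0.86 (adjusted p = 0.00899, limma) and -1.09 (adjusted p = 0.00347), and both passed. In that setting 18.5% of all probes passed with SB202190 and 25.6% in the control, against 8.91% and 5.72% with all arrays. That array was the lowest of its group for Mapk14 and the highest for Il1b, so its removal is a description. In 13 of the 15 settings with arrays left out, the control's difference did not pass. Between SB202190 and DMSO the log2 difference was 0.34 at 0 h (95% interval -0.24 to 0.92) and 0.26 at 4 h (-0.31 to 0.84), with adjusted p values of 0.62 and 0.597 in limma. By the labels of the intensity columns, which differ from those of some normalized columns, with quantile-normalized and median-scaled intensities in that order here and below, the differences between SB202190 and DMSO turned to -0.17 and -0.26 at 0 h and to -0.10 and -0.11 at 4 h, and those after LPS were -0.35 and -0.33 with SB202190 and -0.42 and -0.49 in the control.

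Over the 12 arrays of each experiment, the genes whose log2 values followed Mapk14 most closely among 12002 probes tested in both were Ctage5 (Pearson r = 0.957 in the IKKβ and 0.963 in the p38 experiment), Abhd11 (0.955 and 0.945) and Nabp2 (0.953 and 0.935). Among the members, Map2k4 ran most against it (-0.763 and -0.942), followed by Mapk11 (-0.732 and -0.863). The points of these correlations share BeadChips and normalization.

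Mapk11 codes for p38β, the other p38 that SB202190 blocks, and its detected probe was dim. It ranged from 100 to 182 units at 0 h and from 151 to 185 at 4 h in wt cells, and from 103 to 160 and from 155 to 172 in IKKβ-deficient cells. In the DMSO control it was 125, 219 and 158 at 0 h and 182, 212 and 175 at 4 h, and the groups overlapped through replicate 2 at 0 h. With SB202190, whose arrays lay close together over all probes, the 4 h arrays (169, 175 and 178) all lay above the 0 h arrays (120, 140 and 151). The log2 difference after LPS was 0.33, 0.31, 0.22 and 0.35 in wt, IKKβ-deficient, DMSO-treated and SB202190-treated cells, and none passed (adjusted p = 0.287 to 0.909, limma). That with SB202190 was -0.12 and -0.13 by the intensity labels.

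Mapk13 codes for p38δ, a p38 that SB202190 does not block. One of its probes was detected on 4 arrays of the IKKβ experiment, 2 at each time and all from IKKβ-deficient cells, and on none of the p38 experiment. It stood at 93.5, 85.1 and 87.5 in wt cells and 95.0, 106 and 99.2 in IKKβ-deficient cells at 0 h, and at 92.4, 94.3 and 86.4 against 96.9, 109 and 99.2 at 4 h. The probe passed the detection filter only through the IKKβ-deficient arrays, so a difference between the genotypes is read as a description alone, and the values lay around the background level of 99.2 units, the normalized level above which as many probes lay as an array of that experiment typically detected. The log2 differences were 0.18 and 0.16.

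Map2k3 codes for MKK3, which activates p38 and, in the textbook relay, no other kinase family. It was the only member lower after LPS past the threshold both in the DMSO control and with SB202190. In the control its intensity was 9156, 8297 and 9682 at 0 h and 4279, 6572 and 5279 at 4 h. With SB202190 it was 13107, 10592 and 10574 at 0 h and 7264, 6649 and 6860 at 4 h. In both, every 4 h array lay below every 0 h array. The log2 difference was -0.77 ± 0.162 (SE, n = 3 against 3) in the control (adjusted p = 0.0267, limma) and -0.72 ± 0.162 with SB202190 (adjusted p = 0.0229), and the difference between these 2 changes was 0.05 (95% interval -0.45 to 0.56, adjusted p = 1). It was 1 of 9 member probes called in the control, where 5.72% of all probes were called, and it was called with SB202190, where 8.91% were and where the only other member called was a dim Map2k6 probe described below.

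Both calls for Map2k3 rested on the small spread of the SB202190 arrays, which the 4 groups share in the fit. When the DMSO arrays were fitted by themselves, the control's difference of -0.77 had an adjusted p of 0.385 in limma, and no probe of the array passed. The SB202190 arrays fitted by themselves gave the opposite, with 7 of 9 member probes past the threshold where 48.5% of all probes were. With the 3 SB202190 arrays of each time averaged as 1 sample, or without the 4 SB202190 columns that follow no intensity column, neither call held (adjusted p = 0.385 in the control and 1 with SB202190, limma). The control's call was also lost without all arrays of replicate 1 or of replicate 3, and without any 1 of the DMSO arrays of replicates 1 and 3 or of the SB202190 4 h arrays, with differences of -0.61 to -0.77 and adjusted p values of 0.052 to 0.518. The call with SB202190 was lost without replicate 1 or 3 (-0.65 and -0.76, adjusted p = 0.225 and 0.238) and without any 1 of the 6 SB202190 arrays (-0.61 to -0.77, adjusted p = 0.0644 to 0.102). By the intensity labels neither passed, and the difference was -0.44 with both versions in the control and -0.16 and -0.12 with SB202190.

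In the IKKβ experiment Map2k3 also ran lower at 4 h. In wt cells it was 6344, 6344 and 5532 at 0 h and 5330, 5143 and 4344 at 4 h, and in IKKβ-deficient cells 5781, 7577 and 5225 at 0 h and 4234, 4557 and 4103 at 4 h. The groups did not overlap in either genotype. The log2 differences were -0.30 ± 0.153 (SE, adjusted p = 0.769, limma) and -0.51 ± 0.153 (adjusted p = 0.552), so neither passed, as was true of all but 2 of the 12376 probes in wt cells (0.0162%) and of every probe in IKKβ-deficient cells. In limma 0 of the 8 member probes passed in either genotype, and at an unadjusted p under 0.05 there were 1 in wt (Mapkapk2), where 6.95% of all probes passed, and 2 in IKKβ-deficient cells (Mapkapk2 and Map2k3), where 6.25% did. Arrays of one replicate number shared a BeadChip, and within BeadChips the differences were -0.25, -0.30 and -0.35 in wt and -0.45, -0.73 and -0.35 in IKKβ-deficient cells. With the BeadChip as a block, the difference in IKKβ-deficient cells passed (adjusted p = 0.041, limma, where 3.2% of all probes passed) and that in wt cells did not (adjusted p = 0.128, where 5.73% did). The 2 changes did not differ past the threshold, with a log2 difference between them of -0.21 (95% interval -0.69 to 0.27, adjusted p = 1).

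SB202190 left Map2k3 higher than the DMSO control at both times on the measured scale, with no overlap, by 0.33 at 0 h (95% interval -0.03 to 0.69, adjusted p = 0.508, limma) and by 0.39 at 4 h (0.03 to 0.74, adjusted p = 0.218). Neither difference passed. They were -0.17 and -0.21 at 0 h and 0.10 with both versions at 4 h by the intensity labels.

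**Figure D2:**
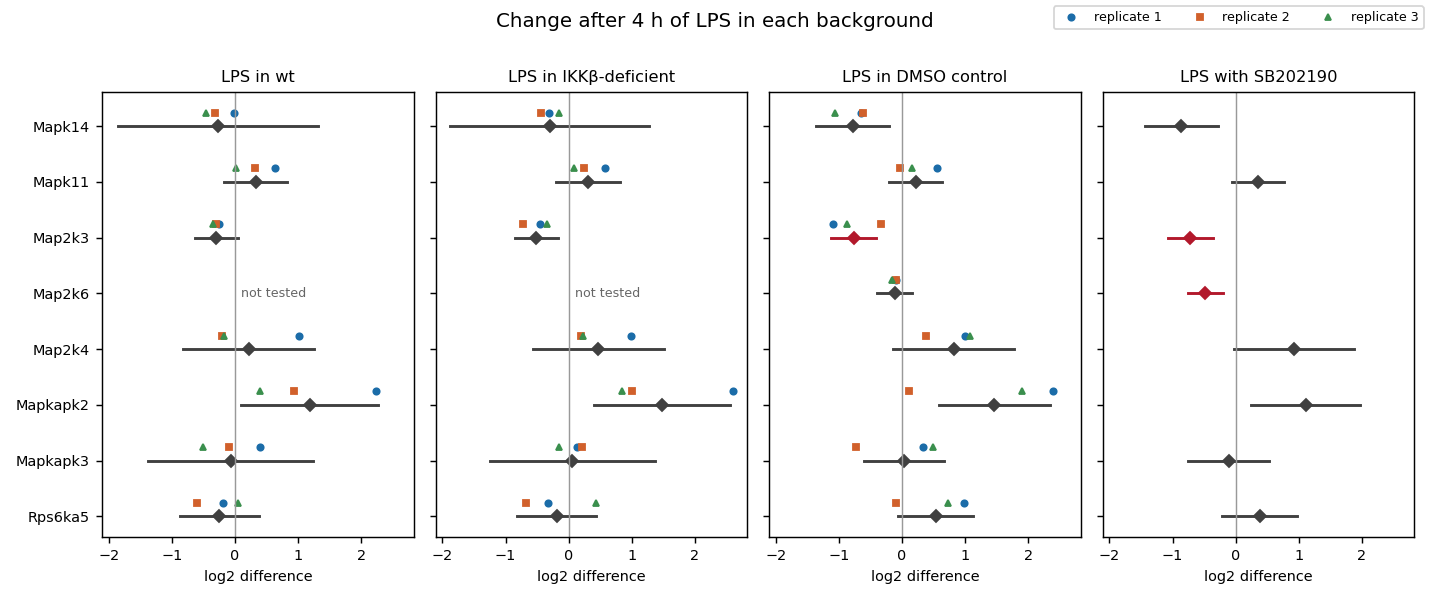
Log2 difference between 4 h and 0 h of LPS (horizontal axis) for 8 probes (vertical axis) in each of the 4 backgrounds. Diamonds and bars are the limma estimate with its 95% interval, red where the adjusted p is under 0.05, and small symbols are differences between arrays of one replicate number, which are not drawn for SB202190 because its numbers did not pair. Map2k3 lies below 0 in all 4 panels, from -0.77 to -0.30, and Mapkapk2 above 0 in all 4, from 1.11 to 1.48, on the normalized values, although with SB202190 it was -0.15 and -0.10 by the labels of the intensity columns.

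Map2k6 codes for MKK6, the other kinase dedicated to p38, and was at or near background. Its 3 probes ranged from 70.7 to 108 units in the IKKβ experiment, where none was tested, and from 82.3 to 150 in the p38 experiment, where 2 were tested. The clearest of them was 143, 131 and 132 with SB202190 at 0 h, against 102, 93.3 and 102 in the DMSO control at 0 h, 96.0, 87.3 and 91.0 in the control at 4 h, and 108, 102 and 82.3 with SB202190 at 4 h. Only the 3 arrays with SB202190 at 0 h lay above 122 units, the background level found in the same way for this experiment. The probe was lower after LPS with SB202190 (log2 difference -0.48 ± 0.125, SE, adjusted p = 0.0403, limma). It passed the detection filter on 3 intensity columns, and of the arrays whose normalized values could be matched to a detection value, the 1 with SB202190 at 0 h was the only one that detected it. It thus entered the test through the group where it is high, and its call is a description that supports nothing. Against the background level this is at least 1.11-fold, and 1.39-fold as measured. The second tested probe was 138, 139 and 138 with SB202190 at 0 h and 127, 130 and 134 at 4 h, a log2 difference of -0.09 (adjusted p = 0.668, limma), so the probes of this gene did not give the same size of change. On the matched arrays of the p38 experiment it too was detected with SB202190 alone, at both times, so its values are likewise a description.

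The call for Map2k6 had the same limits as that for Map2k3. It was lost with the SB202190 arrays of each time averaged or without the 4 unmatched columns (adjusted p = 1, limma), without replicate 1, 2 or 3 (log2 difference -0.38 to -0.54, adjusted p = 0.0592 to 0.314) and without any 1 of the 6 SB202190 arrays (-0.36 to -0.56, adjusted p = 0.0743 to 0.161). Its difference by the intensity labels was -0.14 and -0.13 (adjusted p = 1, limma).

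On the matched arrays of this experiment both tested Map2k6 probes were detected with SB202190 alone. Their comparison with the DMSO control at 0 h is therefore a description, and its intervals and p-values support nothing. Both were higher with SB202190 on each array, by 0.45 (95% interval 0.17 to 0.73) and 0.32 (0.10 to 0.54) on the log2 scale, at least 1.11-fold and at least 1.14-fold. Neither passed (adjusted p = 0.464 and 0.471, limma), and no probe of the array did in this comparison. The intensity labels gave 0.20 and 0.18 for the first probe and 0.17 and 0.16 for the second. The third probe, not tested, was 119, 150 and 128 with SB202190 and 117, 88.7 and 95.1 in the control. Comparisons at 0 h between SB202190 and DMSO use the same DMSO arrays as the LPS change in the control.

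Map2k4 codes for MKK4, which activates JNK as well as p38. In wt cells it was 671, 1927 and 2563 at 0 h and 1355, 1682 and 2273 at 4 h, and in IKKβ-deficient cells 773, 1368 and 1735 at 0 h and 1540, 1556 and 2030 at 4 h. On BeadChip 1, where Il1b was low at 0 h, the log2 difference after LPS was 1.01 in wt and 0.99 in IKKβ-deficient cells, and on BeadChips 2 and 3 it was -0.20 and -0.17 in wt and 0.19 and 0.23 in IKKβ-deficient cells. Over all arrays it was 0.22 (95% interval -0.82 to 1.25, adjusted p = 0.953, limma) and 0.47 (-0.57 to 1.51, adjusted p = 0.934).

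In the p38 experiment Map2k4 was 1508, 4953 and 1440 in the DMSO control at 0 h and 3000, 6464 and 3052 at 4 h, with both arrays of replicate 2 the highest of their groups. With SB202190 it was 1161, 1566 and 1436 at 0 h and 2540, 2559 and 2742 at 4 h, with no overlap. The log2 difference was 0.82 ± 0.435 (SE, adjusted p = 0.288, limma) and 0.92 ± 0.435 (adjusted p = 0.22). Without the DMSO 0 h array of replicate 2, whose Il1b was 20561, the control's difference was 1.40 (adjusted p = 0.00534, limma, where 25.6% of all probes passed) and that with SB202190 0.92 (adjusted p = 0.0314, where 18.5% did). This array stood out by these same values, so its removal is a description. By the intensity labels the difference after LPS was 0.51 and 0.46 in the control and turned to -0.15 and -0.14 with SB202190.

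Mapkapk2 codes for MK2, the kinase through which p38 acts on cytokine mRNAs, and had the largest difference after LPS of the tested members in each of the 4 backgrounds on the normalized values. In wt cells its intensity was 2790, 8967 and 8153 at 0 h and 13052, 17124 and 10676 at 4 h. In IKKβ-deficient cells it was 2626, 7289 and 5375 at 0 h and 16009, 14661 and 9598 at 4 h. All 4 h arrays lay above all 0 h arrays of their genotype. The log2 difference was 1.18 ± 0.485 (SE) in wt and 1.48 ± 0.485 in IKKβ-deficient cells, or 2.27-fold and 2.80-fold, and neither passed (adjusted p = 0.676 and 0.677, limma). With the BeadChip as a block the adjusted p was 0.107 and 0.0717. Within BeadChips 1, 2 and 3 the difference was 2.23, 0.93 and 0.39 in wt and 2.61, 1.01 and 0.84 in IKKβ-deficient cells, the largest on the BeadChip where Il1b was low at 0 h in both genotypes. Between the genotypes it differed by -0.33 at 0 h (95% interval -1.41 to 0.75) and -0.03 at 4 h (-1.11 to 1.05), with an adjusted p of 1 for both.

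In the DMSO control Mapkapk2 was 4128, 15507 and 4597 at 0 h and 21581, 16683 and 17152 at 4 h. With SB202190 it was 6132, 4853 and 4799 at 0 h and 11138, 10809 and 11952 at 4 h. The groups did not overlap in either, although the DMSO 0 h array of replicate 2 came close to the 4 h arrays. The log2 difference was 1.46 ± 0.396 (SE) in the control, or 2.76-fold (adjusted p = 0.0557, limma), and 1.11 ± 0.396 with SB202190, or 2.16-fold (adjusted p = 0.108). Without the DMSO 0 h array of replicate 2 it was 2.07 in the control (adjusted p = 1.15e-05, limma), one of 4 member probes past the threshold where 25.6% of all probes passed, and 1.11 with SB202190 (adjusted p = 0.000436, where 18.5% did). That array was the highest of its group for Mapkapk2, so its removal is a description. In 13 of the 15 settings with arrays left out, the control's difference did not pass. The intensity labels gave 0.88 and 0.92 in the control and reversed the difference with SB202190, to -0.15 and -0.10 (adjusted p = 1 for all 4, limma).

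At 4 h Mapkapk2 was lower with SB202190 than in the DMSO control on all arrays, 10809 to 11952 against 16683 to 21581. The log2 difference was -0.70 ± 0.396 (SE, 95% interval -1.57 to 0.17) and did not pass (adjusted p = 0.344, limma), in a comparison where 2.63% of all probes passed and 0 of the 9 member probes did. With the arrays at 4 h fitted by themselves the adjusted p was 0.0454 (limma), where 4.7% of all probes passed. Without the DMSO 0 h array of replicate 2, which is in neither group but enters the shared spread, the adjusted p was 0.0117, where 12% of all probes passed. That removal is again a description. By the intensity labels the difference between treatments was 0.05 and 0.01 at 4 h and 1.08 and 1.03 at 0 h, where it was -0.35 on the normalized values. The change after LPS did not differ past the threshold between the treatments, with a log2 difference between the changes of -0.35 (95% interval -1.59 to 0.88, adjusted p = 1, limma).

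Across the 12 arrays of an experiment, the log2 intensity of Mapkapk2 followed that of Il1b, with a Pearson r of 0.930 in the IKKβ and 0.905 in the p38 experiment. Mapk11 (0.843 and 0.855) and Map2k4 (0.829 and 0.783) ran the same way, and Mapk14 (-0.489 and -0.849) and Map2k3 (-0.603 and -0.805) the opposite way. These are descriptions over arrays that share LPS treatment, BeadChips and normalization. At 0 h, replicates 2 and 3 of wt and IKKβ-deficient cells and replicate 2 of the DMSO control had more of both genes than replicate 1 of their group. Replicate 3 of the DMSO control did not follow this closely, with 3997 units of Il1b against 123 on replicate 1 but 4597 of Mapkapk2 against 4128. The part of this in the LPS comparisons was not tested beyond the values given without the DMSO array.

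**Figure D3:**
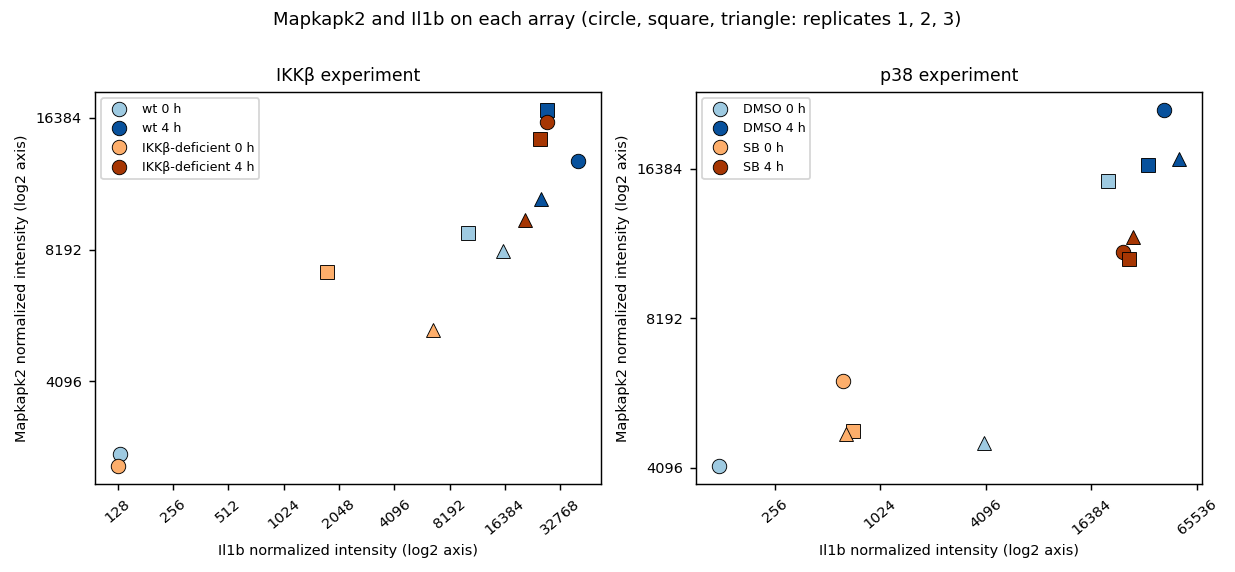
Normalized intensity of Mapkapk2 (vertical axis) against that of Il1b (horizontal axis), both on log2 scales in arbitrary units, for each of the 12 arrays of the IKKβ experiment (left) and of the p38 experiment (right). In the IKKβ experiment the 0 h arrays of replicates 2 and 3 lie between those of replicate 1 and the 4 h arrays, and in the p38 experiment the DMSO 0 h array of replicate 2 (15507) lies above the SB202190 4 h arrays (SB in the key), with Pearson r of 0.930 and 0.905.

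Mapkapk3 codes for MK3, a close relative of MK2. It was 780, 734 and 646 in wt cells at 0 h and 1019, 688 and 453 at 4 h, and 649, 836 and 241 in IKKβ-deficient cells at 0 h and 708, 971 and 217 at 4 h. Replicate 3 was the lowest of each group, and all groups overlapped. In the p38 experiment it ranged from 894 to 2498 without SB202190 and from 1504 to 1749 with it. The log2 difference after LPS was between -0.11 and 0.06 in the 4 backgrounds, with intervals of -0.61 to 0.67 in the control and -0.75 to 0.53 with SB202190.

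Rps6ka5 codes for MSK1, which phosphorylates CREB and histone H3 downstream of p38 and ERK. One of its 2 probes was detected, on 11 of the 12 arrays of the IKKβ experiment and on all 12 intensity columns of the p38 experiment. It ranged from 93.4 to 201 units in the IKKβ experiment, with overlap between all groups. In the DMSO control it was 235, 203 and 246 at 0 h and 464, 189 and 409 at 4 h, so that 2 arrays at 4 h were above and 1 was below all 0 h arrays. With SB202190 it was 241, 266 and 246 at 0 h and 327, 335 and 321 at 4 h, with no overlap. The log2 difference was 0.54 ± 0.269 (SE, adjusted p = 0.259, limma) and 0.39 ± 0.269 (adjusted p = 0.432). Without the DMSO 4 h array of replicate 2, the one below the 0 h arrays, the control's difference was 0.94 (adjusted p = 0.00185, limma). In that setting 12.3% of all probes passed in the control, against 5.72% with all arrays. The difference with SB202190 stayed at 0.39. This array was picked by these same values, so its removal is a description. The difference with SB202190 was -0.14 and -0.13 by the intensity labels.

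Neither loss of IKKβ nor SB202190 moved a member past the threshold at either time. Between IKKβ-deficient and wt cells, 0 of 8 member probes passed at 0 h, where no probe of the array did, and 0 of 8 at 4 h, where 0.00808% did, which was the probe for Ikbkb. The interval for Map2k3 was -0.33 to 0.35 at 0 h and -0.54 to 0.14 at 4 h on the log2 scale, and -0.23 to 0.26 and -0.44 to 0.05 with the BeadChip as a block. Between SB202190 and DMSO, 0 of 9 member probes passed at 0 h, where no probe of the array did, and 0 of 9 at 4 h, where 2.63% did. At an unadjusted limma p under 0.05, the counts of member probes for the genotypes were 0 at 0 h, where 0.59% of all probes passed, and 0 at 4 h, where 1.17% did. For the treatments they were 2 at 0 h (both Map2k6 probes), where 9.79% of all probes passed, and 2 at 4 h (Map2k3 and the second tested Map2k6 probe), where 19.9% did, and the methods' t-test adjusted over all probes gave 0 in each. The Map2k6 probes entered the test through SB202190 arrays, so their part in these counts is a description. No member's LPS change differed past the threshold between genotypes, where no probe of the array passed, or between treatments, where 0.0148% did. A p-value above the threshold does not show that the levels were alike, and several of these intervals are wide, such as the blocked interval of -0.91 to 0.85 for Mapkapk2 between the genotypes at 4 h.

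**Figure D4:**
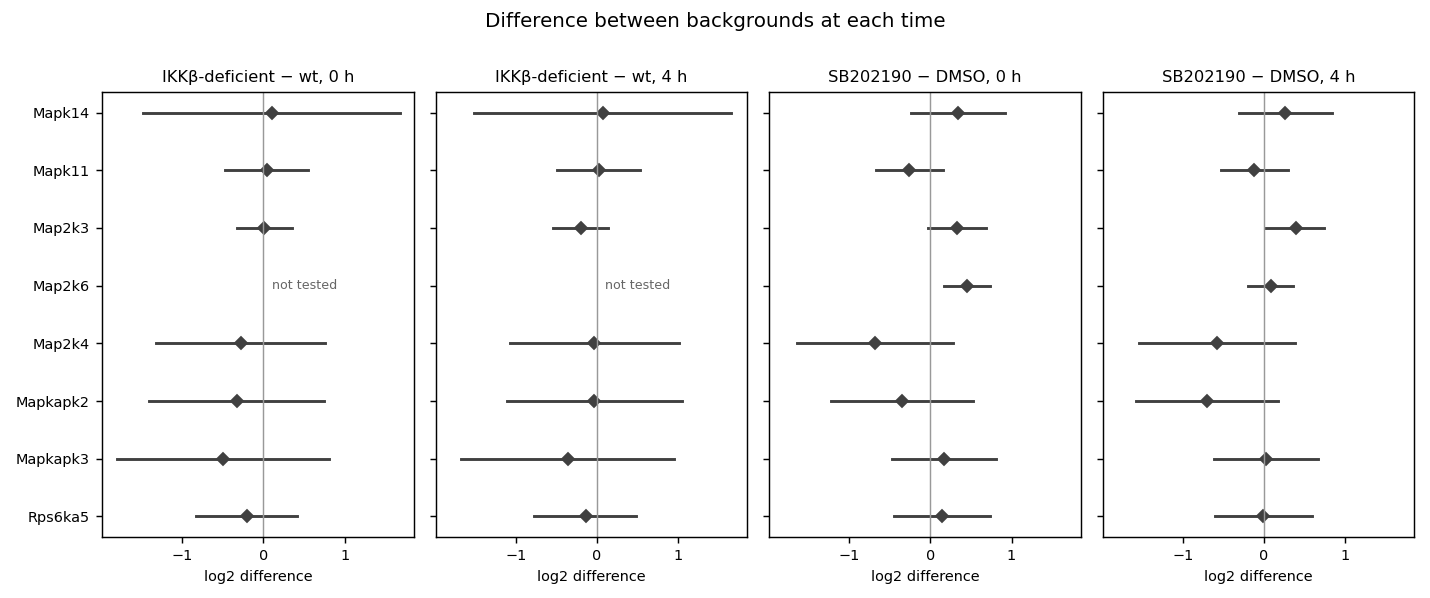
Log2 difference (horizontal axis) between IKKβ-deficient and wt cells and between SB202190-treated and DMSO-treated cells, at 0 h and at 4 h, for 8 probes (vertical axis). Diamonds and bars are the limma estimate with its 95% interval, and none has an adjusted p under 0.05. Mapkapk2 with SB202190 at 4 h lies at -0.70. The bars for the IKKβ experiment come from the fit without the BeadChip block, with which those of Mapk14 narrow to -0.19 to 0.39 at 0 h.

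The rest of the pathway was read from 6 lists of genes, with the brightest tested probe for each gene. In the IKKβ experiment none of their genes passed in any comparison without the BeadChip block. With it, Dusp16 (2.12, adjusted p = 0.0182, limma) and Dusp1 (1.16, adjusted p = 0.0423), which code for MAPK phosphatases, were higher after LPS in wt cells, and Mef2c (165 to 269 against 317 to 485 units, adjusted p = 0.00597) and Hmgn1 (-0.56, adjusted p = 0.0336), which code for a p38 and an MSK substrate, were lower. In IKKβ-deficient cells Map3k8 (1.09, adjusted p = 0.0447), which codes for the MAP3K TPL2, and Dusp16 (2.01, adjusted p = 0.0295) were higher and Mef2c (-0.85, adjusted p = 0.014) was lower. Measured in this experiment were 10 phosphatases, 14 substrates and 11 MAP3Ks or partners of TAK1. With the block, 2.66% of all probes passed as higher and 3.07% as lower in wt cells, and 1.76% and 1.44% in IKKβ-deficient cells. In the p38 experiment, the MAP3K tier (kinases that act on MAP2Ks, with the partners of TAK1) had 13 of 18 genes measured. Over all probes tested, 2.77% were higher and 2.95% lower past the threshold after LPS in the control, 4.85% higher and 4.06% lower after LPS with SB202190, and 1.75% higher and 0.887% lower with SB202190 than in the control at 4 h. Tab1, a TAK1-binding protein that also binds p38α, was lower after LPS in the control (686 to 872 against 918 to 2191, log2 difference -1.06 ± 0.268, SE, adjusted p = 0.0452, limma) and with SB202190 (-0.98, adjusted p = 0.0462). Tab2, an adapter of TAK1, was higher with SB202190 (0.84, adjusted p = 0.0429). The list's median log2 difference was 0.03 in the control and 0.06 with SB202190, beside -0.03 for all probes in both.

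None of the 4 measured genes of the JNK arm and none of the 5 of the ERK arm passed in any comparison of the p38 experiment. Of the other kinases that MAPKs activate, 3 of 7 were measured. Mknk2, which codes for the eIF4E kinase MNK2, was lower after LPS in the control (397 to 623 against 1048 to 2960, log2 difference -1.93 ± 0.324, SE, adjusted p = 0.0127, limma) and with SB202190 (1319 to 1505 against 3862 to 4402, -1.52, adjusted p = 0.0188). At 4 h it was higher with SB202190 than in the control (1.45, adjusted p = 0.0434). Its difference at 0 h was 1.04 (adjusted p = 0.471, limma), and its LPS change did not differ past the threshold between the treatments (0.41).

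All 10 phosphatases listed as acting on p38 were measured. After LPS 2 of the 10 were higher in the control, where the list's median log2 difference was 0.43 beside -0.03 for all probes, and 3 with SB202190, where it was 0.37. Dusp16, which codes for a JNK and p38 phosphatase, was among both, at 5979 to 11642 against 763 to 4004 in the control (2.57 ± 0.482, SE, adjusted p = 0.0185, limma) and 4877 to 5327 against 585 to 673 with SB202190 (2.99, adjusted p = 0.00717). Dusp2 was higher in the control (4.11, adjusted p = 0.046), and Dusp8 (1.51, adjusted p = 0.0112) and Ppm1b (1.37, adjusted p = 0.0113) with SB202190. At 4 h Dusp1, the LPS-induced phosphatase MKP-1, was lower with SB202190 than in the control (1909 to 2238 against 11973 to 42215, -3.26 ± 0.517, SE, adjusted p = 0.0134), and Dusp8 was higher (1.59, adjusted p = 0.0187). At 0 h these differences were -1.14 and 0.51, and neither passed. Their LPS changes differed between the treatments by -2.12 and 1.07, which did not pass.

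Of 17 substrates of p38, MK2 or MSK, 16 were measured. Mef2c, a transcription factor that p38 phosphorylates, was lower after LPS in the control (286 to 535 against 712 to 918, -1.22 ± 0.222, SE, adjusted p = 0.0166, limma) and with SB202190 (-1.31, adjusted p = 0.00825), and Tab1 was the other gene lower in the control. With SB202190 3 genes were lower, Mef2c, Zfp36l1 (-2.03, adjusted p = 0.0259) and Tab1, and Atf2 was higher (0.57, adjusted p = 0.0398). At 4 h 2 of the 16 were lower with SB202190 than in the control, both of them mRNA-decay factors that MK2 phosphorylates, Zfp36 (2286 to 2661 against 16288 to 21302, -2.99 ± 0.316, SE, adjusted p = 0.00205) and Zfp36l1 (544 to 587 against 1592 to 3847, -2.10, adjusted p = 0.0458). The list's median in this comparison was -0.21, beside 0 for all probes. At the same time point and in the same comparison, Mapkapk2 differed by -0.70 and Mapk14 by 0.26 without passing. At 0 h Zfp36 and Zfp36l1 were also lower with SB202190, by -2.31 and -1.31, without passing (adjusted p = 0.108 and 0.493, limma). Their LPS changes differed between the treatments by -0.68 and -0.79, which did not pass. These list calls come from the same shared spread as those for Map2k3, and in the control no probe passed when its 2 groups were fitted by themselves. None of the calls named from these lists in the p38 experiment held with the SB202190 arrays averaged, without the 4 unmatched columns or with either version of the intensities, where the number of probes past the threshold went to 0 from 774 after LPS in the control, from 1205 with SB202190 and from 356 between the treatments at 4 h. Without any 1 of the SB202190 4 h arrays, the last number was 19 to 23. DMSO arrays of one replicate number varied together, and with the number as a block, where 5.63% of all probes passed after LPS in the control, Tab1 no longer passed there (adjusted p = 0.0532, limma), and Map3k8 (1.69, adjusted p = 0.0418) and Rps6ka3 (1.14, adjusted p = 0.0405), which codes for the kinase RSK2, did.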

How the data were processed

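For every probe, the authors deposited a BeadStudio intensity on a linear scale before normalization and a detection p-value set against negative control beads. The intensity values used here are those the authors deposited after quantile normalization over the 12 arrays of an experiment in Partek, with medians of 93.1 and 115. Its version is not given in sources used here. Columns not used numbered 0. The platform annotation named 23978 probes and left 1719 unnamed. Probes entered the test with a detection p below 0.05 on 3 or more of 12 intensity columns. Log2 values were fitted with limma 3.58.1 in R 4.3.3, as 4 group means per experiment, 2-sided, with Benjamini-Hochberg adjustment over the probes tested, at 0.05. The code was tested on simulated data. The number of arrays limits the precision.

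The replicate number is the BeadChip in the labels. In the IKKβ experiment all 12 normalized columns had the rank order of the intensity column of their own label. In the p38 experiment 1 of the 12 did, so there the number is not shown to be the BeadChip of the normalized values. With group means removed, arrays that share a number correlated in the IKKβ experiment (r = 0.414 to 0.926, 18 pairs), so the numbers pair there, and between DMSO groups (0.536 to 0.594), but not with SB202190 arrays (-0.0677 to 0.0949). Every probe of the listed genes is described, with up to 4 passing genes per pathway list and comparison, Ikbkb and Il1b as checks, and the 3 genes most correlated with Mapk14. Genes and lists were chosen with earlier results of these data known. Promoter windows are RefSeq sequences of GRCm38.p6. Figures used matplotlib 3.10.9, pandas 2.3.3 and Python 3.11.15. Alternatives were a block by replicate number (the BeadChip in the IKKβ experiment), no detection filter, the brightest probe of each gene, an offset of 50, intensities normalized anew, fits of 2 groups, array weights, the methods' t-test, averaged SB202190 arrays, and arrays left out. Leaving out the 4 SB202190 columns that follow no intensity column was chosen after seeing the data.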

Additional observations from a re-analysis of the deposited data

How the results depend on the processing

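Counts below are member probes past the threshold in limma unless another test is named. In the IKKβ experiment the count stayed at 0 in all comparisons without any array or replicate number, and with the BeadChip block it was 1 for LPS in IKKβ-deficient cells (Map2k3). The methods' t-test, unadjusted, gave 1 for LPS in wt (where 5.28% of all probes passed), 1 for LPS in IKKβ-deficient cells (where 4.78% did) and 8 after LPS in SB202190-treated cells (where 47.1% did). Between SB202190 and DMSO it gave 2 at 0 h and 2 at 4 h, and none of these was left after adjustment. By an unadjusted limma p, which is another test, 9.79% and 19.9% of all probes passed in these comparisons. The 2 counts are a description. For LPS in the DMSO control, the count of 1 was 0 with renormalized or median-scaled intensities, with 2 groups fitted, with array weights, with the t-test after Benjamini-Hochberg adjustment, with the SB202190 arrays averaged and without the unmatched SB202190 columns, and ranged from 0 to 5 as arrays were left out (5 without replicate 2, where 25.2% of all probes passed). For LPS with SB202190, the count of 2 was 1 with the brightest probe of each gene, 0 with both kinds of intensities, with averaged SB202190 arrays and without the unmatched columns, 7 with 2 groups fitted, with array weights and with the adjusted t-test (where 48.5%, 47.1% and 35.1% of all probes passed), and ranged from 0 to 5 as arrays were left out. With the replicate block, in which SB202190 arrays share only a number, Mapk14 was added there (log2 difference -0.86, adjusted p = 0.0432), and Map2k3 in the DMSO control kept its call (adjusted p = 0.0418), while with SB202190 Tab1, Tab2 and Atf2 (adjusted p = 0.0535, 0.0611 and 0.0563) and at 4 h Mknk2 and Zfp36l1 (0.0524 and 0.0518) lost theirs. For SB202190 against DMSO at 4 h the count of 0 was 1 with 2 groups fitted and ranged from 0 to 1 as arrays were left out.

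In the p38 experiment 2 of the 8 matched normalized columns followed an intensity column with another condition in its label. A further 4, all SB202190, followed none, so values by the intensity labels differ in SB202190 intensities as well as in labels. The intensity labels put the normalized DMSO 4 h column of replicate 3 (Il1b 51928, Mapkapk2 17152) in the SB202190 0 h group. They put the SB202190 0 h column of replicate 2 (719 and 4853) in the DMSO 4 h group. By these labels, Mapkapk2 with SB202190 reversed after LPS (-0.15 with quantile-normalized and -0.10 with median-scaled intensities), as did the second Map2k6 probe for SB202190 against DMSO at 4 h (-0.03 and -0.05). Which labels are right, and the part of the 2 columns with another condition in these reversals, was not tested. Of 71 other fold changes of members, 41 kept their sign in every other setting and 31 as arrays were left out. Over all probes, the BeadChip block raised the count past the threshold from 2 to 709 for LPS in wt and from 0 to 396 in IKKβ-deficient cells. For LPS in the DMSO control it went from 774 to 0 with 2 groups fitted and 132 with array weights, and for LPS with SB202190 from 1205 to 6560 and 6373.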
